A study of Mus musculus with 6 samples.

Results

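The pyruvate dehydrogenase complex, its kinases and its phosphatases were followed in isolated mouse pancreatic islets through 10 genes: Pdk1, Pdk2, Pdk3, Pdk4, Pdp1, Pdp2, Pdha1, Pdhb, Dlat and Pdhx. All probe sets whose platform annotation gave exactly 1 symbol among these genes were taken, which were 18 of 45037 probe sets and 10 of 18193 genes. RNA came from 3 islet samples of Vhlh knockout mice and 3 of control mice, hybridized to 1 Affymetrix array each. The model is described for both groups as a beta-cell-specific knockout with RIP2-Cre, a Cre recombinase driven by a rat insulin promoter, and floxed alleles, Vhlh(fl/fl). The labels call the other mice only control and do not say which of these alleles they carried. In both genotypes the array numbered 01 held islets of males aged 26 weeks, 02 of females aged 20 weeks and 03 of males aged 18 weeks, and the islets were prepared in 3 batches per genotype, with the number of mice per batch not stated. The product of Vhlh (symbol Vhl on the platform) is the von Hippel-Lindau protein, a ubiquitin ligase subunit through which hypoxia-inducible factor (HIF) is degraded.

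Pyruvate dehydrogenase converts pyruvate made by glycolysis into acetyl-CoA inside mitochondria and so links glycolysis to the citrate cycle. The kinases (Pdk genes) phosphorylate the E1 alpha subunit and switch the complex off, and the phosphatases (Pdp genes) remove these phosphates and switch it on. Beta cells send most glucose carbon into mitochondrial oxidation and keep lactate formation low, and human PDK1 is a classical target of HIF-1. Pdk1 here is pyruvate dehydrogenase kinase and not the signalling kinase Pdpk1, which is also written PDK1. Pdk1 and Pdhx are on chromosome 2, Pdp1 on 4, Pdk4 on 6, Pdp2 on 8, Dlat on 9, Pdk2 on 11, Pdhb on 14, and Pdk3 and Pdha1 on X, by RefSeq. The comparison of the genotypes asks how the transcripts of this switch differ in islets whose beta cells are to lack the von Hippel-Lindau protein.

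Values are MAS5 signals in arbitrary units on a linear scale, globally scaled by the authors, and array medians lay between 101.9 and 122.7. The brighter Vhl probe set had signals of 344, 358 and 467 on knockout arrays, against 457, 639 and 839 on control arrays. Vhl was lower in the knockout in 3 of 3 same-numbered pairs, by log2 differences of -0.41, -0.83 and -0.84, but knockout 03 lay above control 01. The log2 difference of -0.70 (SE 0.32) did not pass after adjustment (limma adjusted p 0.9999, unadjusted 0.057, and unadjusted 0.027 with the array number as a block). Where its probes lie relative to the deleted part was not analysed here. The islet hormones were bright on every array, with Iapp between 24545 and 64210 and Gcg between 31892 and 55684. Of 8 beta-cell markers tested 3 had a higher knockout mean, where 50% of all genes tested did. Glp1r, with 104, 185 and 131 on knockout arrays against 273, 267 and 195 on control arrays, was 1 lower without overlap. Over all genes tested that share was 2.77%. All 5 tested alpha, delta and PP cell markers had a higher knockout mean, with overlapping groups. Acinar markers had summed signals of 238312, 326413 and 3928 on knockout arrays 01 to 03, against 228991, 263211 and 48892 on control arrays 01 to 03, so both arrays numbered 03 stood apart. Endothelial markers had summed signals of 14135, 10227 and 12251 on knockout arrays, against 8341, 7898 and 8641 on control arrays. All 7 tested endothelial markers of 8 had a higher mean in the knockout, where 50% of all genes tested did. Tie1 lay below the array median on all arrays. Markers of fibroblasts and related cells had a higher knockout mean for 9 of 9 tested, beside the same 50%. Their summed signals were 5628, 8237 and 22231 on knockout arrays, against 2837, 6215 and 3378 on control arrays, which overlapped. In RNA from whole islets, fewer cells of a type and less RNA per cell cannot be told apart.

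Pdk1 was the member that stood out, and none of the members passed the threshold over the whole table. Of the 18 probe sets, 16 were bright enough to test, that is brighter than the array median on 3 or more arrays, and they represented 9 genes. Limma called 0 of the 16 at an adjusted p of 0.05, where it called 0.0173% of the 23093 probe sets tested. At an unadjusted p under 0.05 it called 3 of the 16, all higher in the knockout and all of Pdk1, where 2.17% of all probe sets tested were called in either direction, 1.56% higher and 0.615% lower. With the array number as a block the same 3 were called at that level, where 4.2% of all probe sets were, and again 0 passed after adjustment. The knockout signals lay above all control signals for 4 of the 16, where 3.36% of all probe sets did so, and below all control signals for 0, where 3% did so. The median log2 difference of the 16 probe sets was 0.05, beside -0.02 over all probe sets tested, and 10 were above 0 and 6 below, where 48% of all probe sets tested were above 0. The 16 are not independent, since probe sets of 1 gene measure the same transcripts, and none of them passed the brightness filter through 1 genotype alone.

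**Figure D1:**
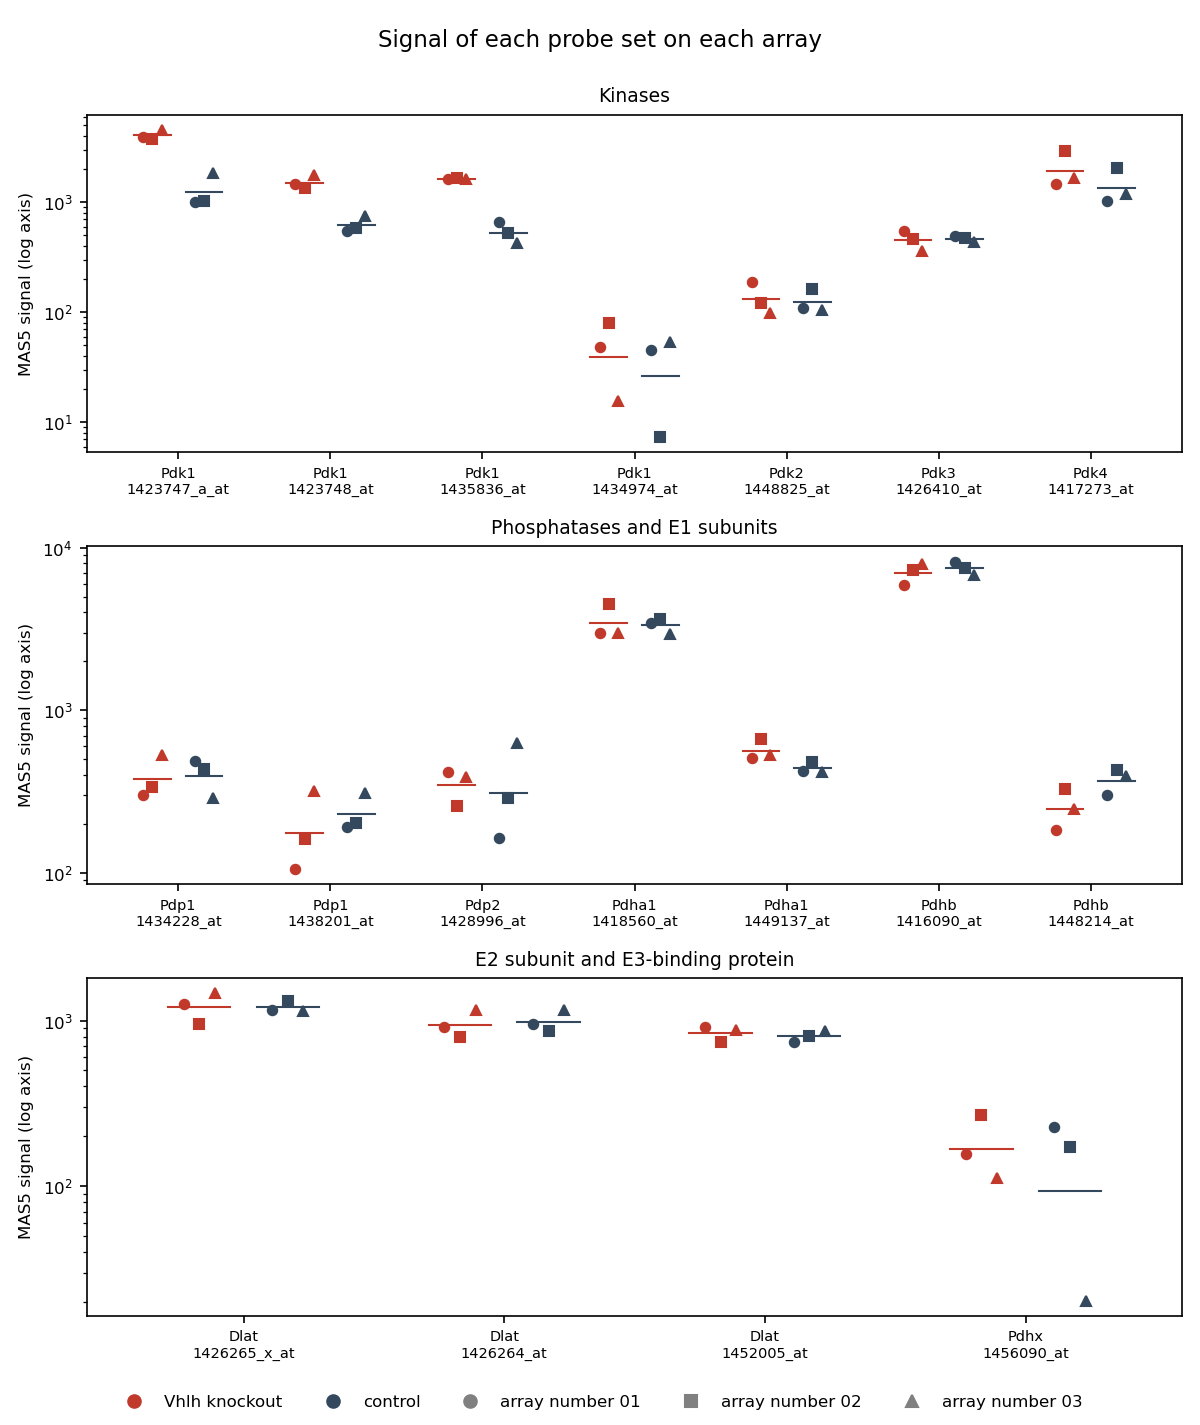
MAS5 signal (log axis, arbitrary units) of each of the 18 probe sets on each array, with Vhlh knockout in red left of control in dark blue, array numbers as symbols and a line at the geometric mean of each group. The 3 bright Pdk1 probe sets have all knockout points above all control points, Pdk4 has the same order of arrays in both genotypes, and the points of most other probe sets overlap.

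Pdk1, an inhibitory kinase of the complex, had 4 probe sets, of which 3 were tested. The brightest had signals of 3915, 3765 and 4550 on knockout arrays 01 to 03, against 995, 1025 and 1860 on control arrays 01 to 03. The lowest knockout array lay above the highest control array, number 03. The mean log2 signal was 11.99 ± 0.14 in knockout and 10.27 ± 0.51 in control islets (SD, n = 3 each), a ratio of 3.28 with a 95% interval from 2.00 to 5.38, and the log2 difference of 1.71 (SE 0.32) had an adjusted limma p of 0.343. A second probe set, annotated to the same target sequence, had 1461, 1348 and 1754 on knockout arrays, against 550.2, 589 and 748 on control arrays. These groups were apart as well, with a ratio of 2.42 (log2 difference 1.28, SE 0.28, adjusted limma p 0.750). The order of the arrays was also alike, and the signals of the 2 probe sets correlated at 0.99 over the 6 arrays, all of which they share.

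Another Pdk1 probe set, annotated to another target sequence, measured the difference through other probes. Its signals were 1631, 1648 and 1625 on knockout arrays, against 659, 523 and 428 on control arrays. The knockout arrays were nearly equal, and control 03, the highest control array for the other probe sets, was the lowest here. The ratio was 3.09 with a 95% interval from 2.00 to 4.79 (log2 difference 1.63, SE 0.28, adjusted limma p 0.329). The remaining probe set lay below the median of every array, with 48.5, 80.7 and 15.6 on knockout arrays and 45.4, 7.3 and 54.1 on control arrays, and the groups overlapped fully (two-sided exact permutation p 0.6, smallest possible 0.1). It was too dim to bear on the others.

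The Pdk1 difference was present in each same-numbered pair, which share age and recorded sex. For the brightest probe set the log2 difference was 1.98, 1.88 and 1.29 in the pairs numbered 01, 02 and 03. The pairs 01 and 02 gave 1.41 and 1.19 for the probe set of the same target, and pair 03 gave 1.23. For the probe set of the other target the order was turned round, with 1.31, 1.66 and 1.92. No pair was therefore the largest for all of these probe sets. Without both arrays numbered 03, on which acinar signals were low, the differences of the 3 probe sets were 1.93, 1.30 and 1.48. The summed endothelial markers were higher on the same 3 knockout arrays without overlap. By themselves, 2 of the 7 tested endothelial markers had no overlap, where 3.98% of all genes tested were higher without overlap. Kdr, the brightest of these markers on every array, had 7130, 5130 and 4673 on knockout arrays, against 3652, 3767 and 3297 on control arrays. Of the 9 fibroblast markers tested 2 had no overlap, and of 3 duct markers tested Krt19 and Sox9 had none, beside the same 3.98%. Sox9 had 119, 140 and 132 on knockout arrays, against 20.9, 64.3 and 99.7 on control arrays, where it lay below the median. It passed the brightness filter through the knockout arrays alone, so its lack of overlap partly follows from the filter. Krt7, the other duct marker tested, had a lower knockout mean. All 4 neural and Schwann markers tested had a higher knockout mean with overlapping groups, where 50% of all genes tested had a higher mean. The summed neural and Schwann signals were 903, 2358 and 2414 on knockout arrays, against 823, 1169 and 522 on control arrays, and the summed duct signals were 5414, 5390 and 2536 on knockout arrays, against 5294, 6344 and 2711 on control arrays. The part of these cell types in the Pdk1 difference was not tested.

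The other inhibitory kinases did not show a difference of this size. Pdk4, a kinase known for its induction by fasting in muscle and liver, had signals of 1478, 2942 and 1653 on knockout arrays, against 1021, 2040 and 1200 on control arrays. In both genotypes the array numbered 02, the female samples of 20 weeks, was the highest, so that the groups overlapped, and age, sex and batch cannot be told apart in this pattern. Within the pairs the log2 differences were 0.53, 0.53 and 0.46. The difference of 0.51 (SE 0.38, adjusted limma p 0.9999) did not pass, and its 95% interval ran from a ratio of 0.789 to 2.56. With the array number as a block its SE was 0.22. The unadjusted limma p was then 0.052, against 0.21 without the block, and the adjusted p 0.9993. The difference ranged from 0.20 without knockout 02 to 0.80 without control 02, fits that leave the other array numbered 02 without its pair. Of 5 markers of muscle and fat with a probe set, tissues rich in Pdk4, 1 was bright enough to test, Fabp4, which is also expressed in endothelium and macrophages. Fabp4 had 2849, 2490 and 2475 on knockout arrays, against 2044, 2941 and 887 on control arrays, which overlapped. The fat gene Adipoq and the myosin gene Myh1 lay below the median of every array. The muscle genes Ckm, at 251 on control 03, and Acta1, at 161 on control 01 and 112.2 on knockout 01, lay above the medians of those arrays. The summed signal of the 5 markers, most of it from Fabp4, ranged from 2615 to 3076 on knockout arrays and from 1231 to 3050 on control arrays. Its part in the Pdk4 values was not tested.

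Pdk3, a kinase encoded on the X chromosome, had signals of 553, 463 and 357 on knockout arrays, against 490 (control 01), 476 and 433 on control arrays. The control values lay within the range of the knockout values. The log2 difference was -0.05 (SE 0.29, adjusted limma p 0.9999), with a 95% interval of the ratio from 0.618 to 1.52. Pdk2, the kinase expressed most widely across tissues, was too dim to test and above the median on 2 of the 6 arrays. It had 187, 122 and 98.8 on knockout arrays, against 109.8, 162 and 105 on control arrays, and the groups overlapped (two-sided exact permutation p 0.7, smallest possible 0.1). Whether Pdk2 differs was not detectable at this signal.

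Pdk1 was set against its paralogs directly by taking the log2 difference of its brightest probe set minus theirs on the same arrays. The Pdk1 difference exceeded that of Pdk3 by 1.76 and that of Pdk4 by 1.21, in 3 of 3 pairs each. Against Pdk4 it was 0.78 without control 02 and 1.59 without control 03, and against Pdk3 it ranged from 1.51 to 2.11 when an array was left out. The two-sided exact permutation p was 0.1 for Pdk3, the smallest the design allows, and 0.2 for Pdk4. These were the 2 comparisons made, and neither can pass a threshold of 0.05 with 3 arrays a group. Their direction was given beforehand, since Pdk1 had the larger log2 difference in these same data. The permutation did not use the pairs.

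**Figure D2:**
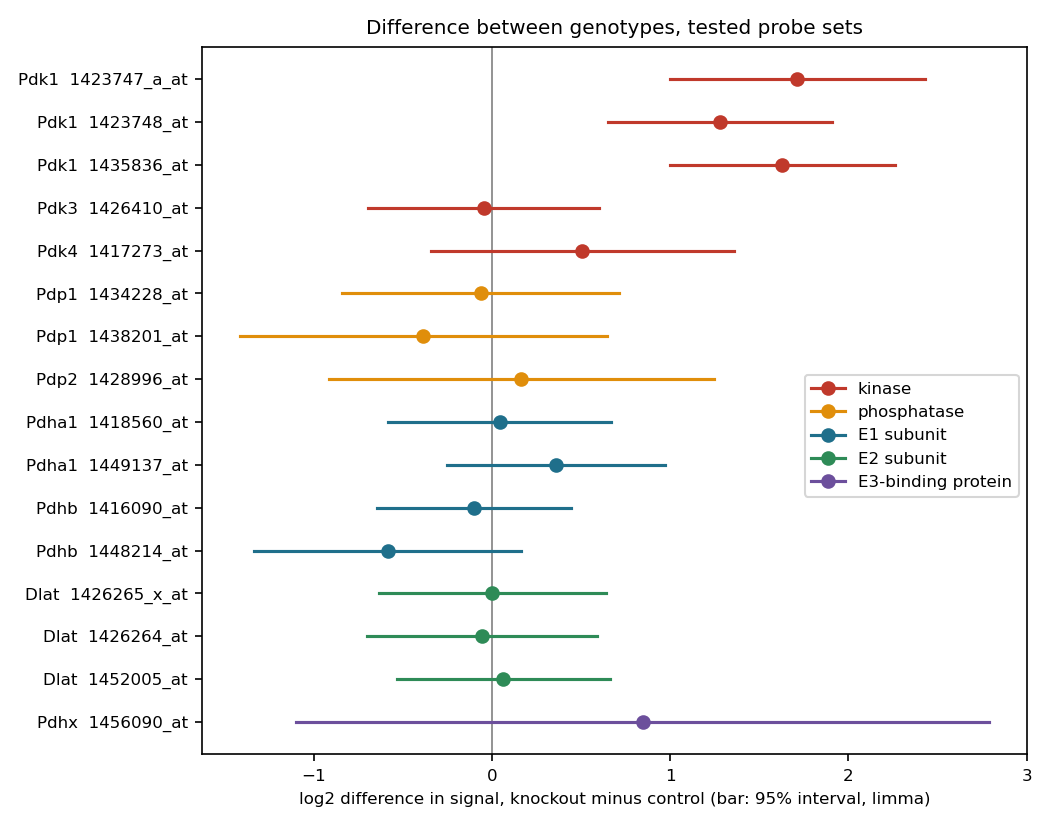
Log2 difference in MAS5 signal, knockout minus control, of the 16 tested probe sets (horizontal axis), with limma's 95% interval as a bar and the role of the gene as colour. The 3 Pdk1 intervals lie above 0, from 0.65 upward, and the intervals of the other 13 probe sets include 0.

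Pdk1 had the largest log2 differences among the members, though none passed, and is a known HIF target in human cells. The promoter windows of the 4 kinase genes are shown so that the letters of Pdk1 can be set beside those of its paralogs. They are 300-base windows from RefSeq on GRCm38.p6, with 250 bases before and 50 after the annotated start, at chr2:71872974-71873273 (plus strand) for Pdk1, chr11:95041322-95041621 (minus strand) for Pdk2, chrX:93832101-93832400 (minus strand) for Pdk3 and chr6:5496229-5496528 (minus strand) for Pdk4. Where a gene had several windows, the one nearest the 5′ end of the gene is given. Capitals mark the core of the hypoxia response element, ACGTG or GCGTG, on either strand (CACGT or CACGC on the strand shown), with overlapping matches joined.
Pdk1: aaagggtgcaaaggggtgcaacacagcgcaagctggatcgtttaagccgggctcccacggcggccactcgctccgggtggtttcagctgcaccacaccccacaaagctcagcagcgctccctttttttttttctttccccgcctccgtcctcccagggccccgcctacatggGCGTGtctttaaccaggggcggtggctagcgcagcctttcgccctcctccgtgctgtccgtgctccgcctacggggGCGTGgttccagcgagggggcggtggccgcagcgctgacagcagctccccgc
Pdk2: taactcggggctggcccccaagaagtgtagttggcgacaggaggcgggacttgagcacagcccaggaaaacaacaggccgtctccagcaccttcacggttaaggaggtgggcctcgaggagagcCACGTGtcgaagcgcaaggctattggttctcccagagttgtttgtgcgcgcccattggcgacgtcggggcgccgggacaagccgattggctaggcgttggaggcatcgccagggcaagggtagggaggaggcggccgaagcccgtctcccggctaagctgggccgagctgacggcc
Pdk3: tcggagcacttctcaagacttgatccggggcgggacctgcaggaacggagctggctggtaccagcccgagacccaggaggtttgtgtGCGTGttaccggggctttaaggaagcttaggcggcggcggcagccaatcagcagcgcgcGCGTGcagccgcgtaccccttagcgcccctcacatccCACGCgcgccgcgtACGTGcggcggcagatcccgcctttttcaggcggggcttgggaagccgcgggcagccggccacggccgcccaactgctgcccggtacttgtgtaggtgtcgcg
Pdk4: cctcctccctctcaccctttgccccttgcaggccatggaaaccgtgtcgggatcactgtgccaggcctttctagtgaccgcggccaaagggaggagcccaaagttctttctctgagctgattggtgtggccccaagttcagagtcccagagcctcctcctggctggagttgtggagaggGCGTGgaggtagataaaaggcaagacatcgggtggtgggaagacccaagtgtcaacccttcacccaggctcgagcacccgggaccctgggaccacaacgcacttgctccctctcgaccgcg
Pdk1 held 2 matches, beginning at -78 and -2 from the start, and a further Pdk1 window downstream held 0. Pdk3 held 4 matches, beginning at -163, -104, -67 and -53 from the start, and Pdk4 held 1 at -71. The match of Pdk2 at -126 was a palindrome that reads the same on both strands, and a further Pdk2 window held 0. Pdk3, with the most matches of the 4 kinase genes, had a log2 difference of -0.05. Whether the matches bear on the differences was not tested. Of all 32851 windows of this length in the table, 43.8% held at least 1 match and 17.3% at least 2. Among the members, 9 genes were in the table with 11 windows, of which 8 windows, each of another gene, had a match, and 5 had at least 2: Pdk1, Pdk3, Pdha1, Pdhb and Pdhx. Dlat had 0 matches in its window, and Pdp2 had 1. A match is a description of the letters and shows no binding.

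The phosphatases, which reactivate the complex, showed no difference beyond the spread of their arrays. Pdp1, the calcium-activated catalytic subunit, had signals of 302, 336 and 529.8 on knockout arrays, against 486, 437 and 289 on control arrays, for its brighter probe set. Knockout 03 was the highest and control 03 the lowest, so pair 03 differed by 0.87 while pairs 01 and 02 differed by -0.68 and -0.38. The log2 difference was -0.06 (SE 0.34), and its sign turned without knockout 01, knockout 02, control 01 or control 02. The dimmer Pdp1 probe set had 106, 161 and 318 on knockout arrays and 192, 204 and 308 on control arrays, with a difference of -0.39 (SE 0.46). Its groups overlapped too, and it ranged from -0.81 without knockout 03 to -0.02 without knockout 01. Pdp2, the other catalytic subunit, had 416, 258 and 391 on knockout arrays, against 163, 290 (control 02) and 628 on control arrays. The control arrays spread more widely than the knockout arrays. The difference of 0.16 (SE 0.48) turned to -0.30 without control 01 and reached 0.67 without control 03. Without both arrays numbered 03, the differences were -0.53 and -0.60 for Pdp1 and 0.59 for Pdp2. Each of the 3 probe sets had an adjusted limma p of 0.9999 over all arrays.

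The E1 subunits, which decarboxylate pyruvate, were close in both genotypes by their brightest probe sets. Pdha1, the E1 alpha subunit that carries the phosphorylated serines, had signals of 3005, 4523 and 2994 on knockout arrays, against 3451, 3662 and 2941 on control arrays. The ratio was 1.03 with a 95% interval from 0.668 to 1.59. Its dimmer probe set, annotated to the same target sequence, had 510, 662 and 533 on knockout arrays, against 426, 480 and 417 on control arrays. These groups did not overlap, the only such case among the members outside Pdk1, but the log2 difference was 0.36 (SE 0.27, adjusted limma p 0.9999). The brighter probe set did not show this separation, and its difference was 0.04 (SE 0.28). Pdhb, the E1 beta subunit, had 5906, 7334 and 7942 on knockout arrays, against 8216, 7528 and 6845 on control arrays, with a ratio of 0.933 and a 95% interval from 0.639 to 1.36. Knockout 01 was the lowest and control 01 the highest, and the difference was -0.10 over all arrays but 0.024 without knockout 01. The dimmer Pdhb probe set had 184, 330 and 247 on knockout arrays and 299.9, 429 and 394 on control arrays. It was lower in the knockout in each pair, by -0.70, -0.38 and -0.67, but knockout 02 lay above control 01, and the difference of -0.58 (SE 0.33, adjusted limma p 0.9999) did not pass. It was -0.79 without knockout 02 and -0.37 without knockout 01. The 2 Pdhb probe sets thus gave ratios of 0.933 and 0.667 for the same gene.

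Dlat, the E2 subunit that passes the acetyl group to coenzyme A, showed no difference beyond the spread of its arrays. Its brightest probe set, leaving out one of the _x_at kind, had signals of 916, 793 and 1161 on knockout arrays, against 949, 866 and 1151 on control arrays. The arrays numbered 03 were the highest in both genotypes, and the pairs differed by -0.05, -0.13 and 0.01. The 3 Dlat probe sets, all annotated to the same target sequence, had log2 differences of 0.0031 (the _x_at probe set), -0.055 and 0.064. Their 95% intervals of the ratio ran, in that order, from 0.645 to 1.56, from 0.615 to 1.51 and from 0.692 to 1.58. The _x_at kind can also pick up similar transcripts, and the sign of that probe set turned under 6 of 14 alternatives. Pdhx, the protein that anchors the E3 enzyme in the complex, is listed in RefSeq with the older synonym Pdx1 and is distinct from the beta-cell transcription factor of that name. It had 155, 269.9 and 112 on knockout arrays, against 229, 173 and 20.4 on control arrays. Control 03 lay far below the others and below the array's median. The difference of 0.85 (SE 0.86) rested on that array, since it was -0.25 without control 03.

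**Figure D3:**
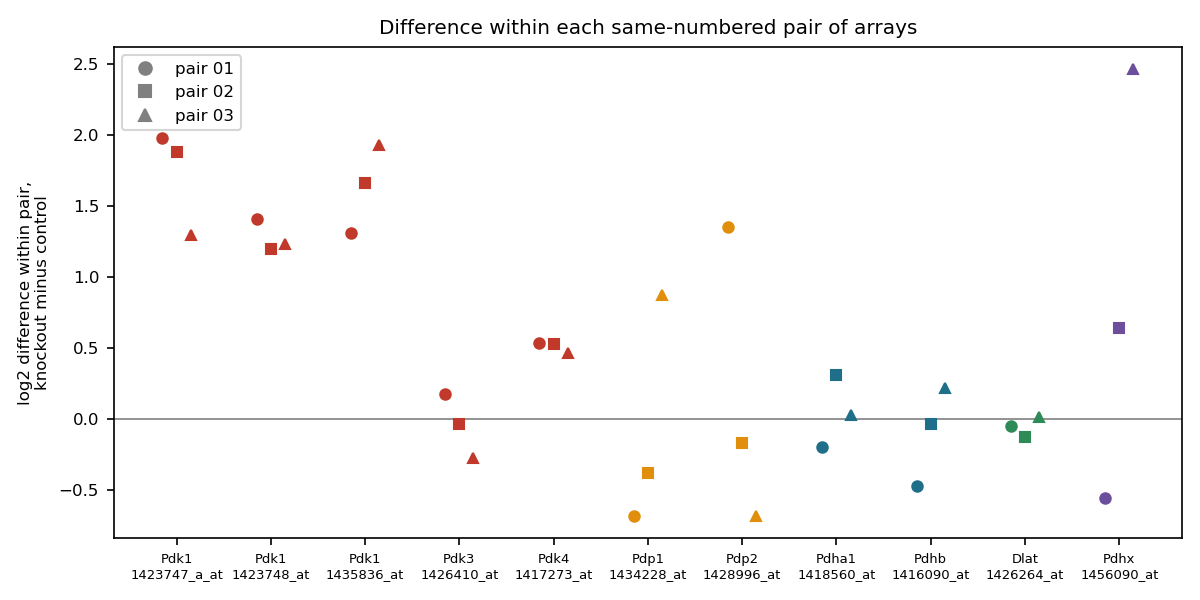
Log2 difference in signal within each same-numbered pair of arrays, knockout minus control, for the 3 tested Pdk1 probe sets and the brightest tested probe set of each other gene (an _x_at probe set is not used). All Pdk1 points lie between 1.19 and 1.98, the Pdk4 points lie between 0.46 and 0.53, and the points of Pdp2 and Pdhx spread to both sides of 0.

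Counted over pairs, 5 of the 16 tested probe sets were higher in the knockout in 3 of 3 pairs, where 12.1% of all probe sets tested were. These were the 3 of Pdk1, that of Pdk4 and the dimmer one of Pdha1. One was lower in 3 of 3 pairs, the dimmer one of Pdhb, where 11.6% of all probe sets tested were.

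The genes whose pattern was most like that of Pdk1 were sought by Pearson's correlation of log2 signal with its brightest probe set over the 6 arrays, among 11608 other genes by their brightest probe sets. The 5 highest were Sox6 (0.98), Shroom4 (0.98), Igfbp1 (0.98), Aox1 (0.97) and Stk24 (0.97). Sox6 had 155, 188 and 168 on knockout arrays, against 71.0, 77.5 and 100.1 on control arrays, where it lay below the median. Igfbp1 had 319, 246 and 640.4 on knockout arrays, against 8.78, 2.44 and 49.7 on control arrays, where it lay below the median too. Both genes passed the brightness filter through the knockout arrays alone. Aox1 had 687, 641 and 806 on knockout arrays, against 299, 316 and 549 on control arrays. In all of the 5 the knockout arrays lay above the control arrays, and control 03 was the highest control array, as for Pdk1. Since the 5 were chosen for their likeness to Pdk1, these features follow from the choice. With 6 arrays in 2 groups, such correlations are a description of order and spacing. Among the other members the highest correlation outside Pdk1 was 0.68, for the dimmer Pdha1 probe set, and the lowest was -0.64, for the dimmer Pdhb probe set.

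Enzymes and carriers around the complex were read from lists, each gene by its brightest probe set. Of 9 cofactor and partner genes 6 were tested, 1 was above and 5 below 0, none passed (0 at an unadjusted limma p under 0.05, where 1.99% of all genes tested were called higher and 0.603% lower), and the median log2 difference was -0.19, beside -0.000277 over all 11609 genes tested. Dld, the E3 subunit that reoxidizes the complex, had 412, 700.1 and 2347 on knockout arrays, against 884, 1128 and 1219 on control arrays. The knockout arrays lay on both sides of the controls, and the difference of -0.28 (SE 0.56) did not pass. Mpc1, a subunit of the mitochondrial pyruvate carrier, had 323, 1014 and 983 on knockout arrays, against 1004, 1009 and 492 on control arrays, which overlapped as well (-0.21, SE 0.49). Pdpr, a regulatory subunit of the phosphatase, differed by -0.18 (SE 0.27) and Lipt2, a lipoyl transferase, by -0.23 (SE 0.37). The sister complexes that share this architecture had 8 of 9 genes tested, 3 above and 5 below 0, with a median of -0.07 and 0 passing (0 at an unadjusted p under 0.05). Their members of lowest p were Bckdhb (-0.33, SE 0.42), Ogdh (-0.18, SE 0.33), Bckdk (-0.14, SE 0.26) and Dbt (0.15, SE 0.33). Bckdk, the kinase of the branched-chain complex and a relative of the Pdk kinases, had 1319, 1155 and 1111 on knockout arrays, against 1412, 1158 and 1388 on control arrays.

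Genes for the other fates of pyruvate and acetyl-CoA were led by Ldha. Of 16 genes 15 were tested, 8 above and 7 below 0, with a median of 0.08 and 0 passing. At an unadjusted p under 0.05 there was 1, Ldha, where 1.99% of all genes tested were called higher. Ldha, which encodes the lactate dehydrogenase subunit suited to turning pyruvate into lactate, had 5476, 5635 and 6100 on knockout arrays, against 645, 1328 and 481 on control arrays. The groups were apart, with a log2 difference of 2.95 (SE 0.38, adjusted limma p 0.0908). Pcx, pyruvate carboxylase, which feeds pyruvate into the citrate cycle beside pyruvate dehydrogenase, had 2112, 1273 and 1228 on knockout arrays, against 1564, 1114 and 1314 on control arrays. These overlapped, and the difference was 0.18 (SE 0.32) with a 95% interval from -0.53 to 0.89. Gpt2, an alanine transaminase, differed by 0.68 (SE 0.34), Pkm, pyruvate kinase, by 0.33 (SE 0.36), and Acly, ATP citrate lyase, by -0.28 (SE 0.28). None of these passed.

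The glycolytic genes known to be induced by HIF ranged in log2 difference from 0.14 for Pfkm to 2.95 for Ldha. Of 16 genes 13 were tested, all 13 were above 0, where 50% of all genes tested were, and the median was 1.41. None passed by its brightest probe set, 9 had an unadjusted limma p under 0.05 and were higher, where 1.99% of all genes tested were called higher and 0.603% lower, and for 9 the knockout signals lay above all control signals, where 3.98% of all genes tested did so, against 2.77% with knockout signals below all control signals. Pfkp, a phosphofructokinase, differed by 2.31 (SE 0.32), Slc2a1, a glucose transporter, by 2.06 (SE 0.42), and Pgk1, phosphoglycerate kinase, by 1.87 (SE 0.34). A dimmer Pgk1 probe set of the _x_at kind was among the 4 probe sets of the whole table that passed, beside 2 of Ak4 and 1 of Prelid2. Pdk1, at 1.71, lay between Pgk1 and the list's median. The list holds Ldha and Pkm, as does the list of pyruvate fates, and was chosen with earlier results of these data known.

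**Figure D4:**
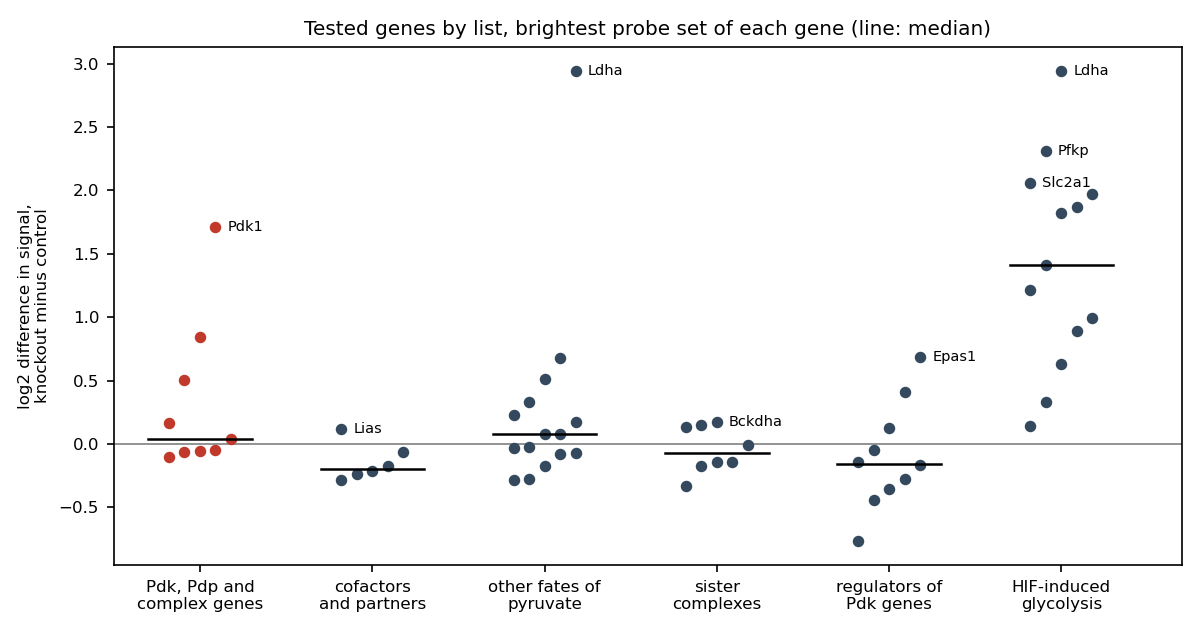
Log2 difference in signal, knockout minus control, of the tested genes of each list by the brightest probe set (an _x_at probe set is used only where a gene has no other), with a line at the list's median. Pdk1 at 1.71 and Ldha at 2.95 lie apart from the other genes of their lists, and the HIF-induced glycolytic genes have a median of 1.41.

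Factors known to control transcription of Pdk genes in other tissues did not pass. Of 12 genes 10 were tested, 3 above and 7 below 0, where 50% of all genes tested were above 0, with a median of -0.16, and Ppara and Ppard were too dim to test. Epas1, which encodes HIF-2 alpha, had 6036, 5262 and 9207 on knockout arrays, against 3669, 3865 and 4941 on control arrays. It was the 1 gene of this list with an unadjusted limma p under 0.05, where 1.99% of all genes tested were called higher and 0.603% lower, with a difference of 0.69 (SE 0.29, adjusted limma p 0.9999). Hif1a, which encodes HIF-1 alpha, had 2235, 3698 and 5652 on knockout arrays, against 4473, 5429 and 4812 on control arrays. The groups overlapped, and the difference was -0.44 (SE 0.35). Pparg and Foxo3 differed by -0.77 (SE 0.58) and 0.41 (SE 0.32).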

How the data were processed

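The authors deposited signal intensity for each probe set and array, linear and not log transformed. Per the submitters' processing notes the tools were GCOS 1.4 and MAS5. Per the labels' protocols, total RNA was amplified in 2 cycles of cDNA synthesis before biotin labelling. The 2% trimmed mean was 500.003 on every array. No detection calls or scan dates were used here, and the number of arrays limits the precision.

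From the 45101 probe sets 64 controls were left out, and 34945 of the rest had exactly 1 symbol. Log2 signals, with no value added, entered a linear model by genotype (limma 3.58.1 under R 4.3.3, moderated with an intensity trend), with Benjamini-Hochberg adjustment over the 23093 probe sets tested. Errors are limma's moderated standard errors. Without the block, they and the limma p-values rest on the spread between the islet samples of a genotype, which differ in batch and age and partly in sex. The text names every member probe set, Vhl, the 4 genes of lowest p of each list with Dld, Mpc1, Ldha and Pcx, and the 5 genes most like Pdk1. Iapp, Gcg, Glp1r, Kdr, Tie1, Krt7, Krt19, Sox9, Pfkm, Fabp4, Adipoq, Myh1, Ckm, Acta1, Ppara and Ppard fall outside this rule. So do Ak4 and Prelid2, and all of these genes were picked with their values in view. The members and lists were chosen with earlier results of these data known. The fit was run on simulated data without pairs, with planted log2 changes larger than the Pdk1 difference. It does not show whether changes of the members' size would be called.

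The arrays of both genotypes carry the numbers 01 to 03. Deviations from the group means over the tested probe sets correlated at 0.113, 0.395 and 0.375 within the same-numbered pairs. By the rule that each exceeds 0.1 the numbers were taken to pair the samples. Knockout 02 with control 01 also reached 0.139, so the rule does not set pair 01 apart. The fit with the number as a block was an alternative. Standard errors, intervals and limma p-values are from the fit without pairs unless the block or another alternative is named.

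Alternatives were no filter and a stricter filter on dim probe sets, quantile normalization, a pseudocount of 32, 1 row per gene, limma without trend or with array weights, and leaving out arrays. Of the listed genes, Mpc2, Ogdhl, Gpi1, Gapdh and Eno1, among others, matched no probe set of 1 symbol and were not analysed here, and Pdp1 has no promoter window in the table used.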

Additional observations from a re-analysis of the deposited data

How the results depend on the processing

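No member probe set passed under any of the 16 alternatives. The 3 tested Pdk1 probe sets stayed above 0 in each alternative that gave them a value: the brightest ranged from 1.54 (mean of the gene's probe sets) to 2.01 (without control 03), with adjusted limma p-values from 0.116 to 0.99998. The replicate block, which pairs the arrays by number, gave 1.71 with an adjusted p of 0.123 and changed no member's call, and the count of probe sets passing stayed at 4, while the count at an unadjusted p under 0.05 was 971 with the block and 502 without. The number of all probe sets passing was 2 without the intensity trend, 2 with the brightest probe set per gene, 0 without both arrays numbered 03 and between 0 and 6 when an array was left out: 0 without knockout 01, knockout 03 or control 01, 1 without control 03. Among list genes, 0 passed, against 2 when probe sets of a gene were averaged and 0 to 1 when an array was left out (1 without control 02). The settings that leave out arrays or keep 1 row per gene use fewer arrays or rows, and for the fit without the trend the cause was not tested.

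Small differences changed sign. Pdk3 was at 0.068 without both arrays numbered 03, and ranged from -0.19 to 0.12 when an array was left out. The brightest Dlat probe set was at 0.0041 with array weights and 0.0041 with averaged probe sets, and the Dlat _x_at probe set at -0.026 with array weights and -0.17 without both arrays numbered 03. When an array was left out, the lowest and highest values were -0.20 and 0.071 for the brightest Dlat probe set, -0.13 and 0.17 for the Dlat _x_at probe set, -0.31 and 0.097 for the brighter Pdp1 probe set, -0.30 and 0.67 for Pdp2, -0.15 and 0.14 for the brighter Pdha1 probe set, -0.19 and 0.024 for the brighter Pdhb probe set, and -0.25 and 1.50 for Pdhx. Pdk2 and 1 Pdk1 probe set lay near the array medians or below them, so signal over background limits what could be seen for them.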
